A study of Mus musculus with 16 samples.

Results

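Protein-coding promoter regions are the stretches of open chromatin found next to the starts of protein-coding genes in mouse CD8+ T cells. They were obtained by merging the autosomal peaks of 16 ATAC-seq peak lists wherever peaks overlapped by at least 1 bp, and by keeping each merged region that came within 1000 bp of a transcription start of a protein-coding gene in GENCODE release M21 on GRCm38. This gave 33072 regions of 510542 merged regions, or 6.48%. A region counts as held by a library if any peak of that library overlaps it.

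ATAC-seq, in which a transposase cuts accessible DNA and attaches sequencing adapters to it, had been run on effector (TE) and memory (TM) T cells grown in culture from the spleens of adult mice of both sexes. By the study's methods OT-I cells, whose T cell receptor recognises ovalbumin, were activated with ovalbumin peptide and then grown with IL-2 for TE or IL-15 for TM. WT libraries are labelled TPdh+/+. TPdh-/- mice carry a floxed Pdha1 gene and a Cre transgene under the Cd4 promoter, so that Pdha1, which encodes the alpha subunit of pyruvate dehydrogenase, is deleted in T cells from an early stage of their development. Each combination of genotype and cell type had 4 libraries, and the sources do not say whether each came from a different animal or culture, so p-values measure the spread between libraries. Pdha1 is on the X chromosome and outside the rule, so the deletion was not examined in these regions.

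A promoter is the DNA around a gene's start where transcription factors and RNA polymerase assemble, and in an active gene it is kept free of nucleosomes, which is what ATAC-seq detects. Many promoters of genes used by nearly all cells lie in CpG islands, stretches rich in G and C in which the CpG dinucleotide has not been depleted. Promoters of genes used by one cell lineage more often lack an island, and some of these have a TATA box. Pyruvate dehydrogenase makes acetyl-CoA from pyruvate in mitochondria, and acetyl-CoA is also the donor of the acetyl groups placed on histones. The comparisons ask whether the loss of this enzyme goes with a change in which promoters are open in each type of cell.

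The sequences that follow show what kinds of promoter the results turn on. Each is the 150 bases before the outermost start of the gene, from the RefSeq sequence of GRCm38, written 5′ to 3′ on the strand of the gene. Capitals mark the letters of 10 factor motifs searched on both strands (SP/KLF GGGCGG, NFY CCAAT, ETS CCGGAAG, NRF1 GCGCATGC, CRE TGACGTCA, YY1 AAGATGGC, the TATA box with TATAAA, RUNX TGTGGTT, AP-1 TGANTCA and T-box AGGTGTGA). Only SP/KLF, NFY and ETS letters occurred in these stretches, and a match is a description of letters, not of a bound factor.

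The first pair are promoters that were open in nearly all libraries. Pou2f1 (chr1:166002679-166002828, minus strand) encodes the transcription factor Oct1, and Mpc2 (chr1:165460487-165460636, plus strand) encodes a subunit of the carrier that brings pyruvate into mitochondria.
Pou2f1: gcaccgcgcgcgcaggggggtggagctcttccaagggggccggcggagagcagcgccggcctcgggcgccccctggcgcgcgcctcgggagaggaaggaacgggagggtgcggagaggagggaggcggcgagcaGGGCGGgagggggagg
Mpc2: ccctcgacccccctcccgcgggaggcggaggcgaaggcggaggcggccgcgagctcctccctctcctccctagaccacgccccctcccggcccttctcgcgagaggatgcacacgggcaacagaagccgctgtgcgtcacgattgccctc
Pdhb (chr14:8173026-8173175, minus strand) encodes the beta subunit of pyruvate dehydrogenase. Its stretch holds 1 SP/KLF and 2 NFY matches.
Pdhb: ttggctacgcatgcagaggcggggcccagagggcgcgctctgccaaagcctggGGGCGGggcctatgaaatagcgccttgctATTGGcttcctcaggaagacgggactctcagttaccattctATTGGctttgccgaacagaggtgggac
The next 4 come from regions found in every library of one group but in no library of another, and each had the highest fold enrichment of its set once a repeat at Litaf was set aside. They belong to Siah2 (chr3:58692401-58692550, minus strand), Zfp763 (chr17:33033403-33033552, minus strand), Ube2c (chr2:164769748-164769897, plus strand) and Crot (chr5:8997325-8997474, minus strand).
Siah2: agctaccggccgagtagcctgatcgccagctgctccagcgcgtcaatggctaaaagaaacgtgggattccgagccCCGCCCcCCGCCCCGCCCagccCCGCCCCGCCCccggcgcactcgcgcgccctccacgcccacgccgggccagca
Zfp763: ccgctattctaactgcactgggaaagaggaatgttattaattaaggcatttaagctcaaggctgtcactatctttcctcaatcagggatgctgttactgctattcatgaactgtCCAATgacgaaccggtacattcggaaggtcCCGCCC
Ube2c: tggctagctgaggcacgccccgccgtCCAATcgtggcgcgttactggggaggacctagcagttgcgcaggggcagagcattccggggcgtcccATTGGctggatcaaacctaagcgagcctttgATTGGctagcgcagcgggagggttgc
Crot: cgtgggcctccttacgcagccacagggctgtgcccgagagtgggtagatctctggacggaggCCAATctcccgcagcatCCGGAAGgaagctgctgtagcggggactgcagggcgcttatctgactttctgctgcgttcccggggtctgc
Cd8b1 (chr6:71322638-71322787, plus strand), the beta chain of the CD8 co-receptor, is shown as a lineage promoter without an island. From 250 bases before to 50 bases after its start the ratio of observed to expected CpG was 0.260, and the printed stretch holds a CA repeat and 3 SP/KLF matches.
Cd8b1: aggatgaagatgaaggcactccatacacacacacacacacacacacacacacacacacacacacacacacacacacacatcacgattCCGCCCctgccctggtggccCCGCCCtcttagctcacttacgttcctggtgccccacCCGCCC
The last 4 belong to the genes nearest to the 5 regions with the highest pileup that all 16 libraries held, and lie before the outermost start of each gene, which for Gm11168 and Gm10717 is not the start nearest to the region. They are Gm10718 (chr9:3023397-3023546), Gm10722 (chr9:3000772-3000921), Gm11168 (chr9:3003196-3003345) and Gm10717 (chr9:3025267-3025416), all on the plus strand, and hold none of the 10 motifs.
Gm10718: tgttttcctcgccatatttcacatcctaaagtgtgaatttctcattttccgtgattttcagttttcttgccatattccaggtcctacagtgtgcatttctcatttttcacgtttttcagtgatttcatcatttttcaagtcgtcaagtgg
Gm10722: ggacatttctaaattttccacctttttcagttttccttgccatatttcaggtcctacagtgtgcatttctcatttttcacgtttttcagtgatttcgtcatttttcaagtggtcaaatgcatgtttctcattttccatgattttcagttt
Gm11168: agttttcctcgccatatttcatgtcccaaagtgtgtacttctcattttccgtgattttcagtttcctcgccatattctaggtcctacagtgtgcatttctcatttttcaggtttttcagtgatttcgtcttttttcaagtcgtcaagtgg
Gm10717: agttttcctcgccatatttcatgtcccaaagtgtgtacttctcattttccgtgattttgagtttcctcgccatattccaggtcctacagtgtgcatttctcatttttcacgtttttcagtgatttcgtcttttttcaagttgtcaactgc
Between 84.0% and 100% of the bases in these last 4 stretches are masked as repeats. Without gaps, Gm11168 and Gm10717 are identical at 144 of 150 positions and Gm10718 and Gm11168 at 138. Gm10722 is identical to Gm10718, Gm11168 and Gm10717 at 62, 56 and 58.

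Libraries held very different numbers of promoter regions. WT TE held 4469, 4923, 1593 and 3595 in replicates 1 to 4, and TPdh-/- TE held 2732, 1900, 6214 and 6426. WT TM held 6276, 1746, 993 and 4704, and TPdh-/- TM held 5697, 6302, 6674 and 7912. Replicates of WT TM and TPdh-/- TE differed widely among themselves, whereas the TPdh-/- TM libraries lay close together. Promoter regions made up 26.4% to 70.7% of all autosomal regions held by a WT TE library but 5.92% to 13.8% in the other 12 libraries. Background coverage, the lowest background in a list in fragments per base and the measure of depth, was 1.18 ± 0.406 (SD, n = 4) in WT TE, 0.324 ± 0.130 in TPdh-/- TE, 0.411 ± 0.107 in WT TM and 0.224 ± 0.0309 in TPdh-/- TM. Depth thus moved with the groups. It was entered as a covariate for the number and the enrichment of promoter regions, and its part in the other results was not tested. Summit pileups are given below in fragments and are not scaled to depth.

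**Figure D1:**
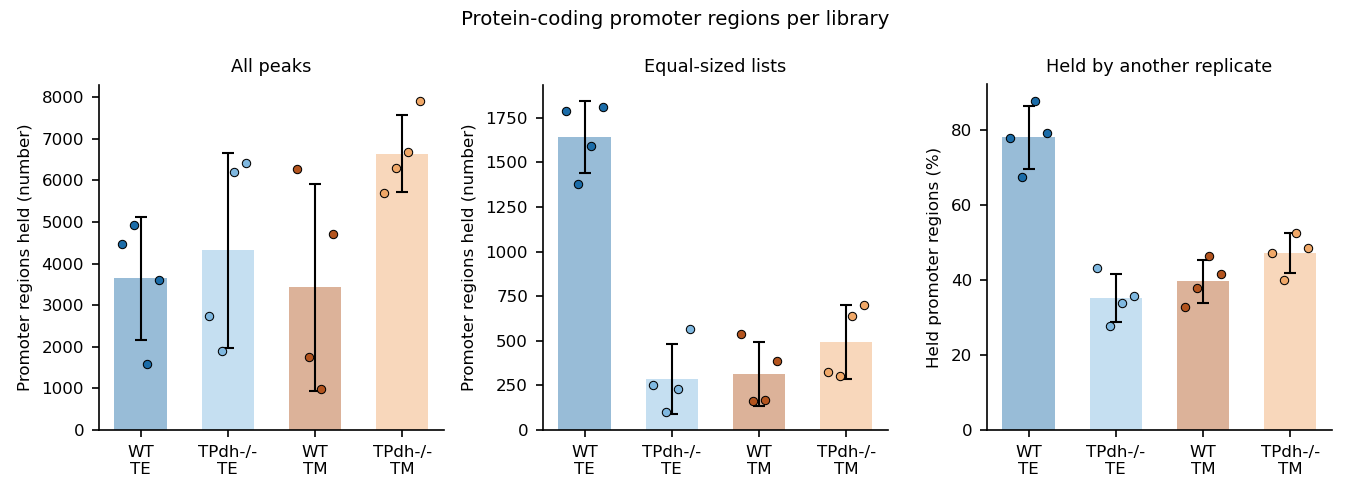
Protein-coding promoter regions held by each library in all its autosomal peaks (left), in its 2270 peaks with the highest −log10 q-value (middle), and the percentage of the held promoter regions that another replicate of the group also held (right). Points are libraries, bars are means and error bars are SD (n = 4); WT TE stands apart in the middle and right panels, with 1377 to 1808 regions and 67.4% to 87.8%, and not in the left one.

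None of the 4 comparisons of these numbers passed the test, which with 4 libraries a group needs at least 3 of the 4 comparisons to be free of overlap. TPdh-/- TM held more promoter regions than WT TM by 1.30 on the log2 scale, a ratio of 2.47, with overlapping libraries (exact permutation p = 0.0571, adjusted 0.229), and by 0.83 without WT TM replicate 3. With background coverage as a covariate this difference was -0.58 (exact permutation p = 0.429), and that of WT TM against WT TE, given next, was -2.21 (exact permutation p = 0.186). In both comparisons the background coverage of the groups did not overlap, so these adjusted values are extrapolations and depth and group cannot be told apart. TPdh-/- TE and WT TE differed by 0.18 (exact permutation p = 0.800, adjusted 0.800), WT TM and WT TE by -0.32 (p = 0.771, adjusted 0.800, exact permutation) and TPdh-/- TM and TPdh-/- TE by 0.80 (p = 0.171, adjusted 0.343, exact permutation), or 0.47 without TPdh-/- TE replicate 2. The list lengths differed widely, so the regions were also counted in the 2270 autosomal peaks of each library with the highest −log10 q-value, 2270 being the length of the shortest list. In these equal lists WT TE held 1790, 1377, 1593 and 1808 promoter regions. TPdh-/- TE held 250, 99, 230 and 565, WT TM 536, 165, 170 and 389, and TPdh-/- TM 327, 305, 637 and 703. Every WT TE library was above every other library, and the log2 difference was -2.78 for TPdh-/- TE against WT TE and -2.56 for WT TM against WT TE (exact permutation p = 0.0286, the smallest possible, adjusted 0.0571 for both). For TPdh-/- TM against WT TM it was 0.73 (exact permutation p = 0.229, adjusted 0.229). The direction of the TE difference also turned under settings that left the lists whole. Promoter regions that another replicate also held, a setting added after seeing the data, numbered 2516 to 3845 in TPdh-/- TM. They numbered 461 to 2060 in WT TM and 527 to 2303 in TPdh-/- TE, both without overlap with TPdh-/- TM.

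Promoter regions were found again in other libraries far more often than regions away from starts. Of the 33072 promoter regions, 22317 or 67.5% were held by 1 library, against 88.1% of the 464345 regions more than 1000 bp from any annotated start. Among regions found often, 1984 promoter regions were held by at least 8 libraries, and they made up 83.0% of all merged regions held so often. That share fell to 72.1% at 12 libraries, 59.6% at 13, 42.3% at 14, 27.7% at 15 and 20.8% at 16, where 38 regions away from starts stood against 10 promoter regions. In each library, the share of held promoter regions that at least 1 other replicate of the group also held was compared with the same share for regions away from starts. It was 50% ± 18.2 (SD, n = 16) for promoter regions and 12.9% ± 9.5 (SD, n = 16) for regions away from starts, a difference of 37.1 percentage points that ranged from 16.9 to 61.9 and was positive in 16 of 16 libraries (exact sign-flip permutation p = 3.05e-05, the smallest possible). In equal lists the difference was 23.0 percentage points with the same p. The part of region width in this difference was not tested.

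The recurring share was highest in WT TE, at 77.8%, 67.4%, 87.8% and 79.2%. It was 43.3%, 27.7%, 34.0% and 35.8% in TPdh-/- TE, 32.8%, 38.0%, 46.4% and 41.5% in WT TM and 47.2%, 39.9%, 52.7% and 48.6% in TPdh-/- TM. No library of another group reached the lowest of WT TE. Counted as regions held by at least 3 of the 4 replicates, the promoters of a group numbered 2123 in WT TE, 627 in TPdh-/- TE, 456 in WT TM and 2152 in TPdh-/- TM. Regions away from starts that met the same criterion numbered 259, 647, 369 and 919. Of the promoter regions in these sets, WT TE and TPdh-/- TM shared 1035, 48.8% of the WT TE set and 48.1% of the TPdh-/- TM set. WT TM shared 314 with TPdh-/- TM, 68.9% of the smaller WT TM set and 14.6% of the other. TPdh-/- TE shared 410 with WT TE, 65.4% of its own set and 19.3% of the WT TE set.

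The promoters that many libraries held differed in sequence from those that few held. A start was called CpG-rich when the ratio of observed to expected CpG in the window from 250 bases before to 50 bases after it was at least 0.6, which 45.5% of the 20807 autosomal protein-coding genes met. Among promoter regions held by 1 library 29.4% had a CpG-rich start nearest to the region. The percentage was 52.0% for 2 to 3 libraries, 82.8% for 4 to 7, 89.4% for 8 to 11 and 90.8% for 12 to 16. The SP/KLF letters, which match the site of the Sp1 family of factors, were in 30.1% of the windows of regions held by 1 library and in 81.9% of those held by 12 to 16, against 43.7% of all genes. The CCAAT letters of the factor NFY rose over the same range from 32.1% to 52.4% (all genes, 38.6%). The ETS letters were most frequent in regions held by 4 to 7 libraries, at 21.4%, against 6.13% for 1 library and 11% of all genes. The NRF1 letters went from 1.81% to 6.22% (all genes, 3.45%). The letters of the TATA box went the other way, from 13.3% to 2.16% (all genes, 12.7%). RUNX letters, which fit a factor family central to CD8+ T cells, were in 5.70% of the windows of regions held by 1 library and 1.89% of those held by 12 to 16 (all genes, 5.20%). AP-1 letters fell from 7.53% to 3.51% (all genes, 6.88%). The share of CpG-rich starts moved with these letters, and its part was not tested.

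**Figure D2:**
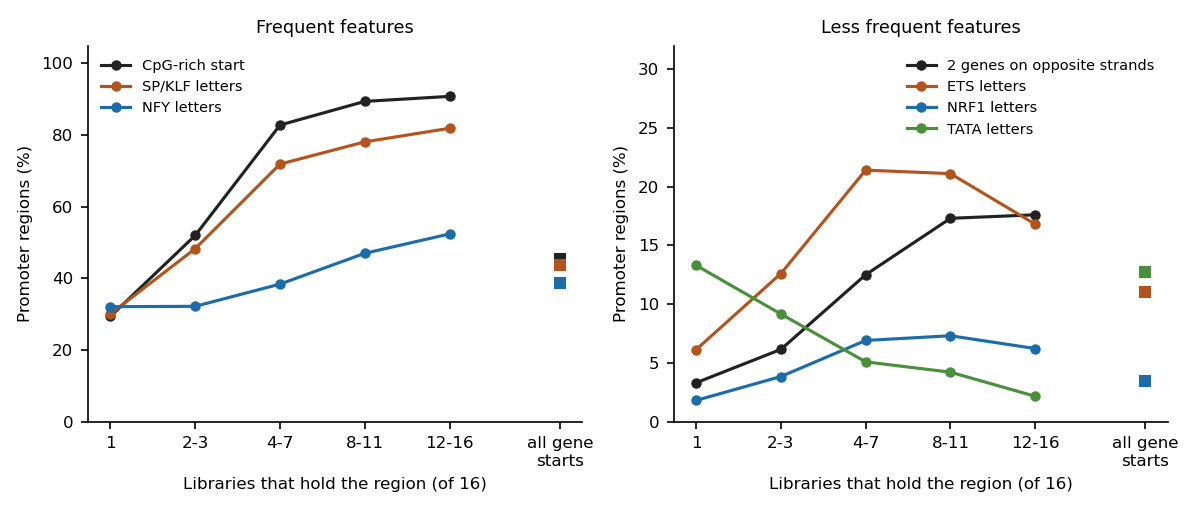
Percentage of protein-coding promoter regions with each feature (y axis) by the number of libraries, of 16, that held the region (x axis), with squares for the starts of all 20807 autosomal protein-coding genes where that value exists. CpG-rich starts go from 29.4% to 90.8% and SP/KLF letters from 30.1% to 81.9%, whereas TATA letters go from 13.3% to 2.16%.

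Recurrent promoters were also more often shared by a pair of genes. A protein-coding start of another gene on the opposite strand lay within 1000 bp of 3.31% of the regions held by 1 library, 6.15% for 2 to 3, 12.5% for 4 to 7, 17.3% for 8 to 11 and 17.6% for 12 to 16. The median width of the merged region grew from 206 to 1040 bp over the same range, and the part of width in these percentages was not tested. Repeats went the other way up to the top of the range. Regions of which at least 50% of the bases were masked made up 13.1% of those held by 1 library and 0.310% of those held by 8 to 11, and then 3.24% of those held by 12 to 16. They numbered 12 of the 370 promoter regions in that last class.

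The 10 promoter regions held by all 16 libraries were of 2 kinds. A stretch of 35.0 kb at the start of the assembled chromosome 9 (3000511 to 3035462) held 9 of them, next to the predicted genes Gm10722, Gm11168, Gm10718, Gm10720, Gm10717 and Gm17535, and the lincRNA gene Gm26870 on the other strand spans their summits. A median of 97.8% of their bases is masked as repeats. The highest of them, 615 bp at Gm10718, had a summit pileup of 1230 to 4719 fragments. The last was the promoter of Pou2f1, 1289 bp with a GC content of 66.7%, whose strongest summit lay at -23 bp from the start assigned to it (negative values are upstream) and outside any annotated gene. Its summit pileup was 15, 19, 14 and 18 fragments in WT TE, 6, 4, 8 and 13 in TPdh-/- TE, 13, 7, 8 and 9 in WT TM and 6, 12, 10 and 10 in TPdh-/- TM. The median summit pileup over the 9 repeat regions was 51.0 to 387 fragments by library, above the 4 to 19 at Pou2f1 in every library, although the authors had removed reads with alternative alignments. The enrichment of the 10 regions, given as the median of log2 (summit pileup / background coverage), therefore describes mostly repeats. It was 7.78 ± 0.44 (SD, n = 4) in WT TE, 8.70 ± 0.56 in TPdh-/- TE, 9.44 ± 0.13 in WT TM and 9.53 ± 0.18 in TPdh-/- TM. WT TM was above WT TE by 1.66 and TPdh-/- TM above TPdh-/- TE by 0.83, each without overlap (exact permutation p = 0.0286, the smallest possible, adjusted 0.0571). With the deposited fold enrichment in place of the pileup ratio these differences were 0.11 and -0.08. Fitted together with depth they were 0.81 and 1.00 (exact permutation p = 0.143 and 0.0571). TPdh-/- TE was above WT TE by 0.92 (exact permutation p = 0.0857, adjusted 0.114) and TPdh-/- TM above WT TM by 0.09 (p = 0.486, adjusted 0.486, exact permutation).

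Single-copy promoters held by 15 libraries were named after their values were seen. They are those of Qdpr, which recycles tetrahydrobiopterin, Hsd17b7, an enzyme of cholesterol synthesis, Hmgb1, an abundant chromatin protein, the transcription factor gene Sp4, Mpc2, the phosphatase gene Dusp10, the aminopeptidase gene Lnpep, Megf9, Ascc3, Riox2 and Rbm27. TPdh-/- TE replicate 2 was the library without a peak at 7 of these 11, and its background coverage of 0.173 was the lowest of all. At Hmgb1 the summit pileup was 22, 23 and 20 fragments in WT TE replicates 1, 2 and 4, with no peak in replicate 3. It was 5, 5, 29 and 18 in TPdh-/- TE, 18, 5, 7 and 13 in WT TM and 8, 14, 22 and 23 in TPdh-/- TM. The replicates of TPdh-/- TE alone covered the whole range of 5 to 29 fragments. The medians over libraries of log2 (summit pileup / background coverage) at these 11 promoters ran from 3.78 at Riox2 to 5.18 at Hmgb1. As an alternative measure chosen after seeing the data, the upper quartile of this log2 ratio over the 49 promoter regions held by at least 14 libraries and not made of repeats was 4.14 ± 0.73 (SD, n = 4) in WT TE, 4.79 ± 0.36 in TPdh-/- TE, 4.51 ± 0.70 in WT TM and 5.76 ± 0.60 in TPdh-/- TM. TPdh-/- TM was above WT TM by 1.26 (exact permutation p = 0.0571, adjusted 0.114), with no call in any comparison. Background coverage, the divisor, was 0.186 to 0.261 in TPdh-/- TM and 0.354 to 0.572 in WT TM, and its part was not tested.

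The median summit lay before the start in every library, and in WT TE most summits were close to it. Positions were taken from the start assigned to each merged region, which is the one nearest to its middle where several lie inside it and need not be the one nearest to the summit. The median position of the strongest summit of a held promoter region ran from -67.0 to -60.0 bp from this start in WT TE libraries and from -53.0 to -18.0 bp in the other 12. In WT TE 62.7% ± 5.07 (SD, n = 4) of these summits lay within 150 bp of the start, with 55.6% in the lowest library. The percentage was 33.9% ± 7.13 in TPdh-/- TE, 35.9% ± 5.42 in WT TM and 35.9% ± 4.55 in TPdh-/- TM, and 42.2% in the highest library. The median summit pileup at held promoter regions was 9 to 15 fragments in WT TE and 4 to 7 elsewhere. WT TE regions thus rested on more fragments and sat closer to the start.

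**Figure D3:**
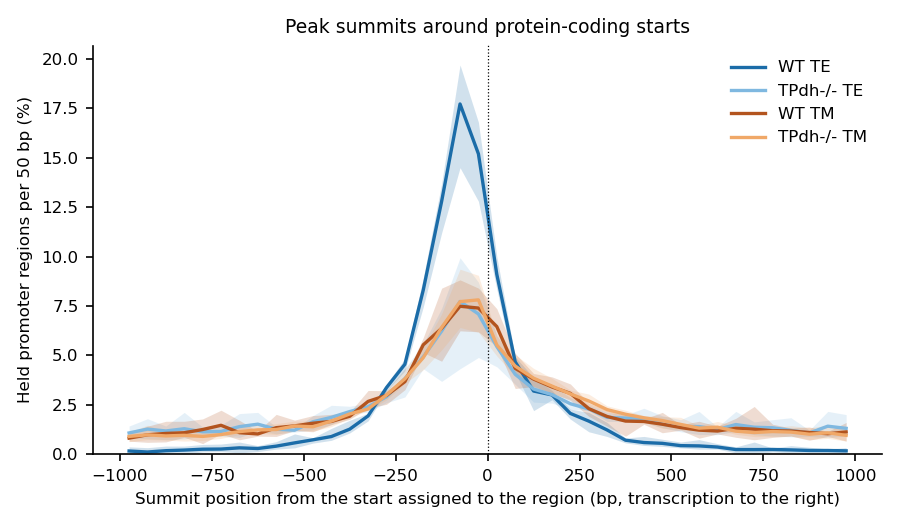
Position of the strongest summit of each held promoter region relative to the protein-coding start assigned to the region (x axis, bp, transcription to the right) as a percentage of the promoter regions a library held, per 50 bp (y axis). Lines are means of 4 libraries and bands run from the lowest to the highest library; WT TE peaks before the start at 14.5% to 19.7% per 50 bp, and its band lies above those of the other groups there.

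CpG-rich starts made up more of the WT TE promoters than of the others. Their share of the held promoter regions was 84.4%, 78.2%, 87.6% and 87.7% in WT TE and 54.1%, 36.9%, 53.6% and 63.4% in TPdh-/- TE. It was 60.7%, 51.5%, 55.4% and 67.7% in WT TM and 55.9%, 50.2%, 62.6% and 63.4% in TPdh-/- TM. Each WT TE library was above each library of the other groups. TPdh-/- TE lay below WT TE by a difference of -32.5 percentage points and WT TM below WT TE by -25.7 (exact permutation p = 0.0286, the smallest possible, adjusted 0.0571 for both). TPdh-/- TM and WT TM differed by -0.809 (exact permutation p = 0.914, adjusted 0.914) and TPdh-/- TM and TPdh-/- TE by 6.02 (p = 0.429, adjusted 0.571, exact permutation). This last difference was 14.9 in equal lists and 0.981 without TPdh-/- TE replicate 2. The genotype effect in TM exceeded that in TE by 31.7 percentage points (permutation p = 7.90e-04). Restricted to promoter regions that another replicate also held, an alternative chosen after seeing the data, the share was 88.7% to 90.1% in WT TE, 68.7% to 82.8% in TPdh-/- TE, 77.8% to 84.5% in WT TM and 79.7% to 81.4% in TPdh-/- TM. The mean was then 81.2% in WT TM against 89.3% in WT TE, a smaller gap than in all held regions. Libraries of a group are not independent in this setting. The gap between TPdh-/- TE and WT TE was then -11.5 percentage points (exact permutation p = 0.0286, adjusted 0.0571). Depth cannot be told apart from the group in this comparison, since each WT TE library had a higher background coverage than each library of the other groups.

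Gene families showed which promoters these were. For each gene a library was scored as having a promoter peak when a held region came within 1000 bp of any of its starts. Over all 20807 autosomal protein-coding genes 19.6% ± 7.61 (SD, n = 4) had one in a WT TE library, 20.1% ± 10.5 in TPdh-/- TE, 16.4% ± 11.4 in WT TM and 30.3% ± 4.14 in TPdh-/- TM. Olfactory receptors, which T cells do not use, serve as the silent background, and 0 of the 1087 had a promoter peak in 8 or more libraries. They had a promoter peak in 0.506% ± 0.648 (SD, n = 4) of cases in WT TE, 6.03% ± 3.10 in TPdh-/- TE, 3.77% ± 2.23 in WT TM and 8.99% ± 1.25 in TPdh-/- TM. Vomeronasal receptors went from 0.230% in WT TE to 4.91% in TPdh-/- TM and keratins from 1.02% to 8.16%. In WT TE these families were nearly free of peaks, whereas in TPdh-/- TM libraries 7.36% to 10.2% of olfactory receptors, 3.99% to 6.44% of vomeronasal receptors and 4.08% to 10.2% of keratins had one.

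Several lists of genes that all cells use had higher group means than all genes. Of 78 cytosolic ribosomal protein genes 34.3% ± 8.59 (SD, n = 4) had a promoter peak in WT TE, 26.3% ± 15.3 in TPdh-/- TE, 21.8% ± 19.3 in WT TM and 43.9% ± 6.05 in TPdh-/- TM, and 17 of 78 had one in at least 8 libraries. Of 34 tRNA synthetase genes 50.7% ± 25.5 had one in WT TE, 35.3% ± 18.3 in TPdh-/- TE, 25% ± 20.7 in WT TM and 51.5% ± 10.9 in TPdh-/- TM, and 12 of 34 reached 8 libraries. Nuclear oxidative phosphorylation subunits reached 8 libraries in 15 of 76 cases and mitochondrial ribosomal proteins in 17 of 77, against 15.3% of all genes. The acetyl-CoA supply and histone acetylation genes did so in 10 of 23 cases, C2H2 zinc finger genes in 67 of 358, proteasome subunits in 7 of 48 and core spliceosome proteins in 2 of 28. Replication-dependent histone genes, 71.6% of which have a CpG-rich start, did so in 1 of 67 cases. Histone genes have near-identical copies, so their values are uncertain, and the part of mapping in this count was not tested. In the other lists of this paragraph 51.4% to 88.2% of genes had a CpG-rich start, against 45.5% of all genes. The part of this was not tested.

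**Figure D4:**
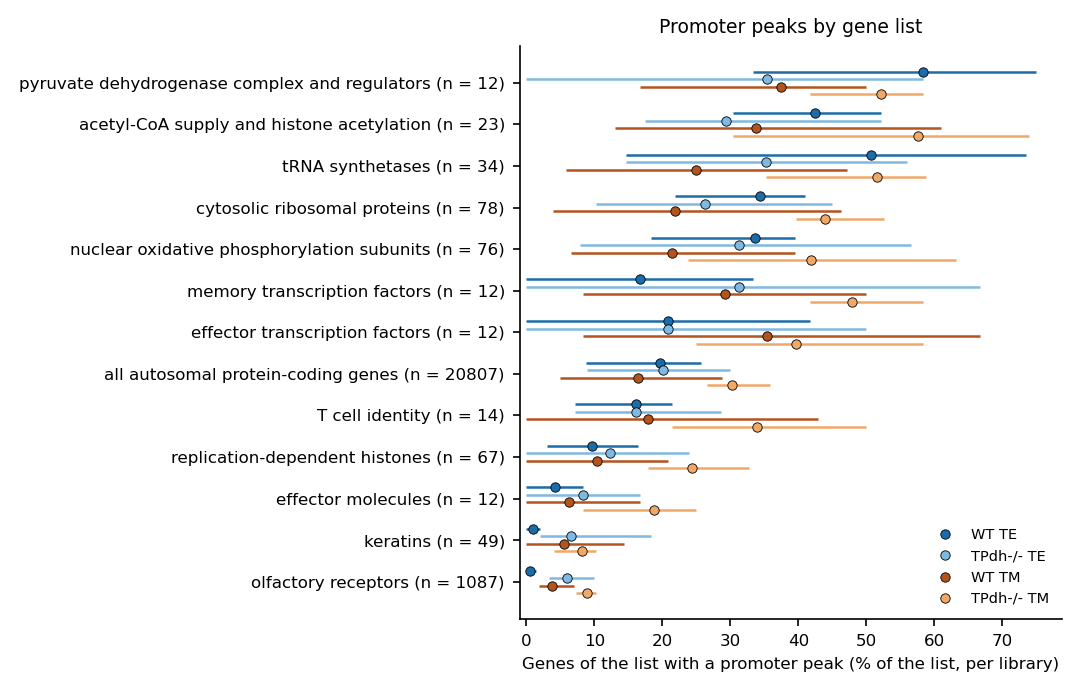
Percentage of the genes of each list with a promoter peak in a library (x axis), by list (y axis, n is the number of genes). Points are means of 4 libraries and lines run from the lowest to the highest library; olfactory receptors are at 0.506% to 8.99% by group and the pyruvate dehydrogenase list at 35.4% to 58.3%.

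The promoters of the pyruvate dehydrogenase pathway ranged from open in 15 libraries to open in none. The list of 12 genes covers the autosomal subunits of the complex, its kinases and phosphatases and the mitochondrial pyruvate carrier. Of these, 5 had a promoter peak in at least 8 libraries (41.7%, against 15.3% of all genes), and 58.3% ± 18 (SD, n = 4) of them had one in WT TE, 35.4% ± 25.8 in TPdh-/- TE, 37.5% ± 16 in WT TM and 52.1% ± 7.98 in TPdh-/- TM. Mpc2 led with 15 libraries, followed by Pdhb with 14 (one of them at another of its starts than the region below), the phosphatase subunit Pdp1 with 13, the E3-binding protein Pdhx with 11 and the kinase Pdk1 with 9. At the other end Pdpr, a regulatory subunit of the phosphatase, had none, and the kinases Pdk2 and Pdk4 had 1 each. Dlat, the acetyltransferase core of the complex, had 5 and Dld, its dehydrogenase, 7, of which 4 were the WT TE libraries and 0 were TPdh-/- TE.

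At the region of Mpc2 (chr1:165459881-165462093, 2213 bp) the summit pileup was 22, 17, 13 and 22 fragments in WT TE and 6, 8 and 10 in TPdh-/- TE replicates 1, 3 and 4. It was 17, 8, 6 and 9 in WT TM and 7, 6, 14 and 14 in TPdh-/- TM. The strongest summit lay between genes, at -434 bp from the start assigned to the region, and closer to the outermost start of Mpc2, before which the printed stretch ends. At the region of Pdhb (chr14:8172576-8173786, 1211 bp) it was 18, 9, 10 and 15 fragments in WT TE, 6 and 7 in TPdh-/- TE replicates 3 and 4, 12, 8 and 7 in WT TM replicates 1, 3 and 4, and 6, 8, 11 and 4 in TPdh-/- TM. The 2 loci had a peak in each TPdh-/- TM library, and the library without a peak at both was TPdh-/- TE replicate 2. As log2 (summit pileup / background coverage), Mpc2 had 3.19 to 4.74 in WT TE and 3.84 to 4.95 in TPdh-/- TE. It had 3.39 to 5.58 in WT TM and 4.52 to 6.23 in TPdh-/- TM. In the same order of groups Pdhb had 2.82 to 3.99, 3.98 to 4.53, 3.81 to 5.08 and 4.42 to 5.58.

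Promoters of T cell genes were held by a median of 2.5 libraries, against 2.00 for all genes. Of 14 T cell identity genes, none of which has a CpG-rich start, 1 had a promoter peak in at least 8 libraries, and 16.1% ± 6.84 (SD, n = 4) had one in WT TE, 16.1% ± 10.7 in TPdh-/- TE, 17.9% ± 18 in WT TM and 33.9% ± 12.2 in TPdh-/- TM. Cd8b1 led with 8 libraries, at 9 and 16 fragments in WT TE replicates 2 and 4, 9 in TPdh-/- TE replicate 4, 4 and 9 in WT TM replicates 1 and 2, and 6, 5 and 10 in TPdh-/- TM replicates 2, 3 and 4. Cd3d, a chain of the T cell receptor complex, had a promoter peak in 6 libraries, Cd5 in 1 and the adhesion receptor gene Cd2 in none. Markers of other cells were found in few libraries, but not in none. The myeloid gene Csf1r had a promoter peak in 4 libraries, more than the 3 of Cd8a, and Ebf1, Ms4a1, Cebpa and Itgam in 2 each. B cell markers averaged 0% in WT TE, 8.33% in TPdh-/- TE, 12.5% in WT TM and 4.17% in TPdh-/- TM, and myeloid markers 0%, 8.33%, 8.33% and 20.8%. The highest of these means rest on 1 library each, with B cell markers at 50% in 1 WT TM library (SD 25, n = 4) and at 0% in the other 3, and myeloid markers at 66.7% in 1 TPdh-/- TM library (SD 31.5, n = 4). Erythroid markers averaged 0% to 10% by group. The part of other cell types in the results was not tested. The B cell gene Cd79a, the myeloid genes Lyz2 and Spi1, the globin gene Hba-a1 and the NK cell genes Klrb1c and Ncr1 had a promoter peak in 0 libraries, and 0 of 6 B cell, 6 myeloid, 5 erythroid and 4 NK cell genes reached 8 libraries. The highest group mean was 25% for the 4 NK cell genes in WT TE, where Nkg7 and Eomes, which CD8+ T cells also express, gave the peaks.

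Regulators of differentiation had a median of 4.00 libraries, both for memory and for effector factors. Of 12 memory transcription factor genes 3 had a promoter peak in at least 8 libraries, Foxp1 and Stat3 with 9 and Zeb1 with 8. The mean was 16.7% ± 15.2 (SD, n = 4) in WT TE, 31.2% ± 27.5 in TPdh-/- TE, 29.2% ± 19.8 in WT TM and 47.9% ± 7.98 in TPdh-/- TM. Tcf7, which encodes TCF-1, had one in 2 libraries, both TPdh-/- TM, and Id3 in none. Of 12 effector transcription factor genes 1 reached 8 libraries, Zeb2 with 12, followed by Junb with 7. The mean was 20.8% ± 19.8 (SD, n = 4) in WT TE, 20.8% ± 22 in TPdh-/- TE, 35.4% ± 24.9 in WT TM and 39.6% ± 17.2 in TPdh-/- TM. The fewest were 2 libraries each for Batf3, Id2 and Tbx21, which encodes T-bet. These gene counts pool peaks at all starts of a gene. The single region held by most libraries was in 2 for Foxp1, 5 for Zeb2, 4 for Junb and 9 for Stat3. Effector molecules had a median of 1.00 library, with 0 of 12 in at least 8 libraries and 4.17% ± 4.81 (SD, n = 4) in WT TE, 8.33% ± 9.62 in TPdh-/- TE, 6.25% ± 7.98 in WT TM and 18.7% ± 7.98 in TPdh-/- TM. Prf1, which encodes perforin, had a promoter peak in 6 libraries and Klrd1 in 3, and Fasl, Gzmk and Klrk1 had none. The count of memory, effector and T cell identity genes that separated a pair of groups, in the sense defined next, was 0, where 0% to 0.634% of all genes did so per direction, so nothing is read from it. A peak list does not show whether fewer cells had an open promoter or each cell gave fewer fragments.

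A region was called separating for a pair of groups if every library on one side and no library on the other held it, and such regions were set against the regions held by exactly 4 of the 8 libraries. In TM, 69 of 1031 such promoter regions (6.69%) were held by all TPdh-/- TM and no WT TM library, against a background of 6.57% over all autosomal regions, and 0 in the other direction (background, 0.193%). The share of promoters was thus near the background. The number fell far in equal lists, with a −log10 q of at least 5 and with at least 6 fragments, as given in the last section. By gene, 132 of 20807 had a promoter peak in all TPdh-/- TM and no WT TM library (0.634%) and 0 the reverse (0%). Siah2, a ubiquitin ligase gene, had the highest fold enrichment of these regions, with 5, 15, 27 and 14 fragments in TPdh-/- TM, with the strongest summit in an intron 1459 bp after the start assigned to the region. It was also held by 2 WT TE libraries and 1 TPdh-/- TE library. Card6 had 8, 11, 9 and 15 fragments in TPdh-/- TM, Pcnx4 9, 8, 21 and 9, and Hint3 9, 7, 14 and 9. Pcnx4 was also held by all 4 WT TE libraries and Hint3 by all 4 TPdh-/- TE libraries, and by 3 WT TE libraries.

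In TE the separating promoters were mostly held by WT TE, at a share near the background. Of 1084 promoter regions held by 4 of the 8 libraries, 53 (4.89%) were held by all WT TE and no TPdh-/- TE library (background, 4.11%) and 3 (0.277%) by all TPdh-/- TE and no WT TE library (background, 1.69%). Among the 277 such regions that are not protein-coding promoters the numbers were 3 (1.08%) and 20 (7.22%). Promoter regions made up 26.4% to 70.7% of the regions held by WT TE libraries and 5.92% to 11.7% in TPdh-/- TE. The part of this in the contrast was not tested. By gene the numbers were 46 (0.221%) and 16 (0.0769%). Zfp763, a zinc finger gene, led the first set with 19, 11, 14 and 31 fragments in WT TE. Zyg11b, a substrate receptor of a cullin ubiquitin ligase, had 18, 15, 23 and 18. Pdcl had 19, 14, 18 and 19, and Ccnf, the cyclin F gene, 17, 12, 15 and 22. Dld was the only gene of the pyruvate dehydrogenase list in this set. Of the 3 regions held by TPdh-/- TE, that of Litaf was 97.8% repeat, Ube2c, which encodes the ubiquitin-conjugating enzyme of the anaphase-promoting complex, had 5, 9, 6 and 9 fragments, and 5031439G07Rik had 5, 4, 5 and 7.

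Between WT TM and WT TE the separating promoters were mostly held by WT TE, at shares near the background. Of 1091 promoter regions held by 4 of these 8 libraries, 63 (5.77%) were held by all WT TE and no WT TM library (background, 5.91%) and 2 (0.183%) by all WT TM and no WT TE library (background, 0.307%). By gene the numbers were 58 (0.279%) and 2 (0.00961%). Zfp763, Zyg11b, Pcnx4 and Tank, an adaptor of TRAF signalling, led the WT TE set, and this comparison shares its WT TE libraries with the one before. The 2 held by WT TM were Litaf and Tsc1, which encodes an inhibitor of mTORC1 and had 8, 4, 8 and 6 fragments in WT TM.

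In TPdh-/- cells the separating promoters were mostly held by TM, at a share near the background. Of 1128 promoter regions held by 4 of the 8 libraries, 60 (5.32%) were held by all TPdh-/- TM and no TPdh-/- TE library (background, 4.79%) and 2 (0.177%) the reverse (background, 0.435%). By gene the numbers were 93 (0.447%) and 6 (0.0288%). The number of separating promoter regions fell far in equal lists, with a −log10 q of at least 5 and with at least 6 fragments. Crot, which encodes the peroxisomal carnitine octanoyltransferase, led with 9, 11, 13 and 21 fragments in TPdh-/- TM. It had 10, 8 and 20 in WT TE replicates 1, 2 and 4, 8 in WT TM replicate 4 and no peak in any TPdh-/- TE library. Cryz, whose region also covers the start of Tyw3, had 11, 10, 8 and 13 fragments in TPdh-/- TM and Nudt9, an ADP-ribose pyrophosphatase gene, 10, 8, 10 and 10. The 2 held by TPdh-/- TE were 5031439G07Rik and Sec11a, a subunit of the signal peptidase, with 5, 4, 4 and 11 fragments.

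**Figure D5:**
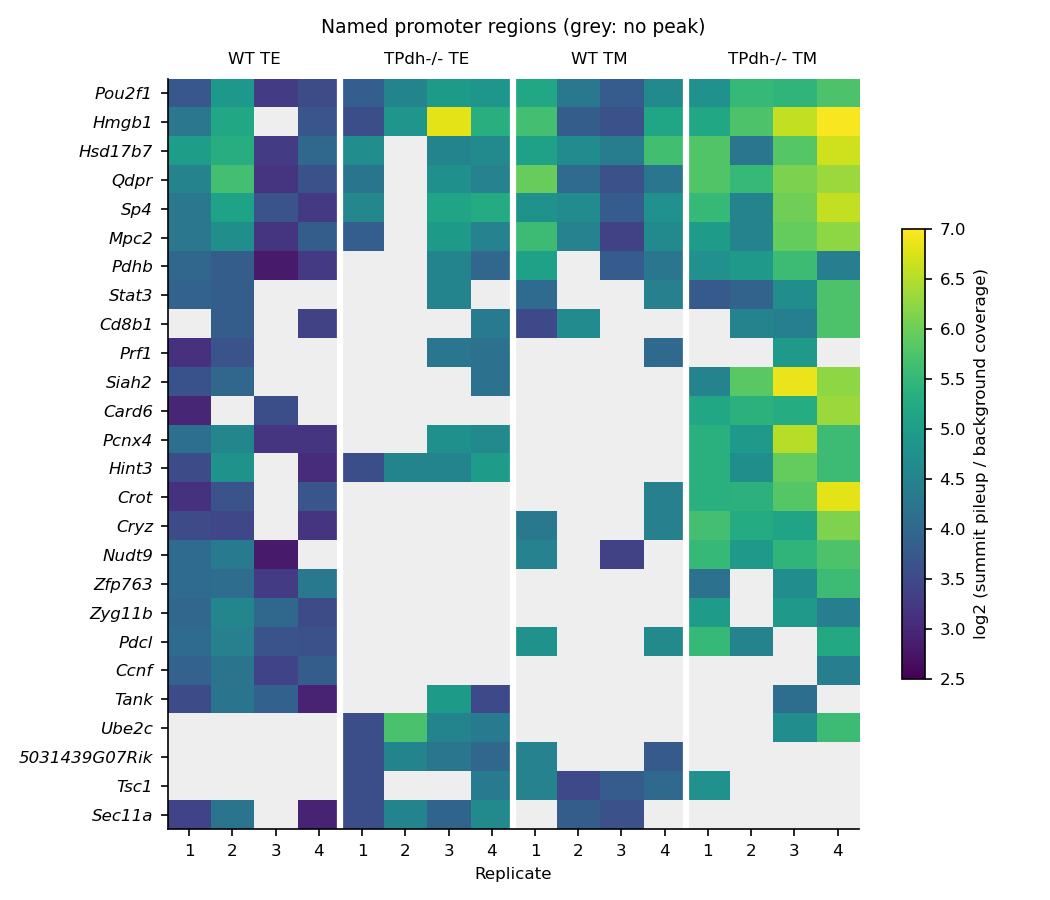
Summit pileup over background coverage (colour, log2) at 26 named promoter regions (rows) in each library (columns, replicates 1 to 4 of each group), with grey where the library held no peak. The rows from Pou2f1 to Pdhb are filled in at least 13 libraries, and those of Stat3, Cd8b1 and Prf1 in 9, 8 and 6. The separating regions below them have values between 2.82 and 6.87 where they are held. The repeat at Litaf (7.44 to 8.67) is not shown.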

How the data were processed

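The 16 files are MACS2 (version 2.2.7.1) narrowPeak lists, 1 per library. The authors trimmed reads with Trimmomatic, aligned them to GRCm38 with BWA 0.7.17 and removed reads with alternative alignments and blacklisted regions before calling peaks. The deposited columns used were the fold enrichment (a ratio at the summit), −log10 p-value and −log10 q-value; the deposited score was not used. No read counts are in the lists. The summit pileup was solved, as a whole number of fragments, from the fold enrichment and −log10 p of each peak, and 24 peaks that fitted 2 whole numbers took the larger. Background coverage, the lowest background so obtained in a list outside the mitochondrial genome, stood for depth and limits which peaks can be called.

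The lists held 645648 peaks, of which 628947 were autosomal. Group comparisons of one value per library used two-sided exact permutation tests over 70 arrangements (smallest p = 0.0286) with Benjamini-Hochberg adjustment over 4 comparisons, called at 0.05. Interactions used 100000 residual permutations, and recurrence a sign-flip test over 16 libraries. Scripts ran in Python 3.11.15 with NumPy 2.4.6, SciPy 1.17.1 and pandas 2.3.3 and were tested on simulated data. Groups came from the titles of the labels. The members and lists were chosen with earlier results of these data known.

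Named promoters were at most 12 held by all 16 libraries, up to 4 separating regions per direction and comparison by median deposited fold enrichment, and the 2 members held by most and the 2 by fewest libraries in the pyruvate dehydrogenase, memory and effector transcription factor, effector molecule and T cell identity lists. Others were named after their values were seen. Sex chromosomes were left out. Alternatives were equal lists, a −log10 q of at least 5, 500 bp from a start, other start sets, fixed windows, depth as a covariate, the replicate block and leaving out each library; 3 kinds were added after seeing the data (recurring or non-repeat regions, a minimum of 6 fragments, and an upper quartile).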

Additional observations from a re-analysis of the deposited data

Results flagged for a closer look

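TPdh-/- TM replicate 4 stood apart from its group in the enrichment of the 10 promoter regions held by all 16 libraries, at 9.79 on the log2 scale against 9.41 to 9.47 in the other 3. Of 16 combinations of group and measure looked at, chance would set apart about 1 in 20.

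The genotype effect differed between TM and TE for 3 measures. The effect on the enrichment of the 10 regions was lower in TM than in TE by a difference of -0.83 on the log2 scale (permutation p = 0.0311). Of these regions 9 are chromosome 9 repeats, and other measures gave other values. The effects were 1.26 in TM and 0.65 in TE with the upper quartile over non-repeat promoters, and -0.34 and -0.16 with the deposited fold enrichment of the 10 regions. These differences were not tested. The effect on the share of CpG-rich starts was higher in TM by 31.7 percentage points (permutation p = 7.90e-04). The effect on the share of promoter regions that another replicate also held was higher in TM by 50.2 percentage points (permutation p = 2.30e-04). The libraries of a group define this share for each other, so that p overstates the evidence. The number of promoter regions held gave 1.12 on the log2 scale (permutation p = 0.184). WT TE libraries had the highest background coverage, and the part of depth in these differences was not tested.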

How the results depend on the processing

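In the number of promoter regions held, TPdh-/- TE against WT TE turned from 0.18 to -2.78 in equal lists, -1.53 with a −log10 q of at least 5, -0.16 within 500 bp of a start, -0.08 with protein-coding transcripts alone, -0.43 in fixed windows and -0.98 with recurring regions alone. It ran from -0.18 to 0.51 when 1 library was left out, and was negative without WT TE replicate 3 (-0.18), TPdh-/- TE replicate 3 (-0.06) or TPdh-/- TE replicate 4 (-0.07). TPdh-/- TM against WT TM ran from 0.83 (without WT TM replicate 3) to 1.71, and TPdh-/- TM against TPdh-/- TE from 0.47 (without TPdh-/- TE replicate 2) to 1.05. WT TM against WT TE ran from -0.74 to 0.15, the latter without WT TM replicate 3. TPdh-/- TM against WT TM turned from 1.30 to -0.58 with background coverage as a covariate. The enrichment of the 10 regions turned with the deposited fold enrichment to -0.34 (TPdh-/- TM against WT TM), -0.16 (TPdh-/- TE against WT TE) and -0.08 (TPdh-/- TM against TPdh-/- TE), and in TM to -0.10 within 500 bp and -0.15 with the covariate. The CpG-rich share in TPdh-/- TM against WT TM turned from -0.809 to 10.3 percentage points in equal lists and 11.2 with a −log10 q of at least 5. It ran from -3.25 to 2.14 with 1 library left out, and was positive without WT TM replicate 4 (2.14) or TPdh-/- TM replicate 2 (1.79). In TPdh-/- TM against TPdh-/- TE the CpG-rich share went from 6.02 to 14.9 in equal lists and 12.5 with a −log10 q of at least 5, and to 0.981 and 9.80 without TPdh-/- TE replicates 2 and 4. The cause of these turns was not tested. The adjusted p of these comparisons can pass 0.05 only if at least 3 of 4 are free of overlap, so its being above 0.05 throughout says nothing of stability.

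The numbers of separating promoter regions, both directions together, in equal lists were 4 for TPdh-/- TM against WT TM, 98 for TPdh-/- TE against WT TE, 103 for WT TM against WT TE and 6 for TPdh-/- TM against TPdh-/- TE. With at least 6 fragments they were 20, 114, 110 and 23. With a −log10 q of at least 5 they were 16, 35 and 15 in the first, the third and the last. Leaving out 1 library loosens the criterion, and the counts then ran from 79 to 184, 78 to 220, 81 to 240 and 86 to 193. In TPdh-/- TM against WT TM the count was 184 and 133 without WT TM replicates 1 and 4, and 171, 173, 115 and 111 without TPdh-/- TM replicates 1 to 4. In TPdh-/- TE against WT TE it was 86, 98, 220 and 92 without WT TE replicates 1 to 4, and 119 and 166 without TPdh-/- TE replicates 3 and 4. In WT TM against WT TE it was 119, 240 and 120 without WT TE replicates 2 to 4, and 190 and 143 without WT TM replicates 1 and 4. In TPdh-/- TM against TPdh-/- TE it was 125 and 193 without TPdh-/- TE replicates 3 and 4, and 158, 168, 111 and 101 without TPdh-/- TM replicates 1 to 4. The directions with few regions moved most: those held by TPdh-/- TE went from 3 to 21 against WT TE and from 2 to 24 against TPdh-/- TM without TPdh-/- TE replicate 2, and those held by WT TM from 0 to 8 against TPdh-/- TM and from 2 to 13 against WT TE without WT TM replicate 3. These counts carry no background share. The higher recurrence of promoter regions held in every setting run, at 23.0 to 43.4 percentage points.

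With the sample number as a replicate block the differences were the same by construction, such as 1.30 for the number held in TM (exact permutation p = 0.250) and -32.5 percentage points for the CpG-rich share in TE (exact permutation p = 0.125, the smallest that 4 pairs allow). Deviations of same-numbered samples correlated at -0.0590 to 0.0542. Most regions were held by 1 library, so such correlations cannot decide whether the numbers pair the samples, and the labels do not say.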
